A study of Homo sapiens with 4 samples.

Results

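Cohesin loops of GM12878 cells treated with aphidicolin were set against those of the same line treated with hydroxyurea, 1 library a side. The comparison covers the 15182 loops listed in both drug libraries, out of 41846 listed in any of the 4 libraries of the study. A loop here is a pair of 5 kb bins of 1 chromosome, called as joined more often than its background. Loops were matched by chromosome and by the start of each anchor, and an anchor is either of the 2 bins. The value of a loop is its contact count, the number of read pairs that join its anchors. Each count was divided by its library's total over the 15182 shared loops, 501841 for aphidicolin and 435667 for hydroxyurea. A value is given as the log2 ratio of these scaled counts, where 1 is a 2-fold difference and values above 0 are higher with aphidicolin.

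The method, HiChIP, joins DNA ends that lie close together in the fixed nucleus and then enriches the joined pieces with an antibody, here against SMC1, a subunit of cohesin. The 4 libraries were DMSO, APH (0.4 µM aphidicolin), H2O and HU (0.2 mM hydroxyurea), each from an 18 h exposure. The vehicle was DMSO for aphidicolin and water for hydroxyurea, so the drugs differ in vehicle and in molar dose as well as in kind. GM12878 is 1 lymphoblastoid line, made of B cells transformed by Epstein-Barr virus. GM12878 is what the source, cell line and library name entries say, whereas the titles give a different lymphoblastoid line. No group has a second library, so no p-value is given. The 95% intervals cover counting error only, and even there may be too narrow, since no molecular identifiers are stated. The DMSO and H2O libraries, compared in the same way over the 12470 loops that both list, show how far a pair of libraries without a drug differed.

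Cohesin is a ring that takes in DNA and enlarges a loop until it meets CTCF bound to DNA or is released. SMC1 and SMC3 form its arms, and RAD21 and a STAG subunit close it. Cohesin also holds sister chromatids together from the time of replication. Both drugs slow replication forks at different steps. Aphidicolin competes with nucleotides at the replicative DNA polymerases, and hydroxyurea inhibits ribonucleotide reductase, which supplies the deoxynucleotides. Low doses of aphidicolin are known for breaking common fragile sites. Whether forks were slowed was not measured in these files.

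The promoters below lie in anchors of loops that the results turn on. The first belongs to the loop with most contacts in both drug libraries, the second to the gene with the deepest of the large differences in favour of hydroxyurea, and the third to the loop with the highest ratio in favour of aphidicolin among called loops with at least 60 counts. They are the RefSeq promoters of the GRCh38.p14 table, 250 bases before to 50 after the start, read 5′ to 3′ on the gene's strand. COXFA4L3, which encodes a small mitochondrial protein, has its promoter on the plus strand at chr15:45430360-45430659. ADM, which encodes the peptide hormone adrenomedullin, has it on the plus strand at chr11:10304823-10305122. MYOZ1, which encodes a protein of the muscle Z-disc, has it on the minus strand at chr10:73641425-73641724.
COXFA4L3: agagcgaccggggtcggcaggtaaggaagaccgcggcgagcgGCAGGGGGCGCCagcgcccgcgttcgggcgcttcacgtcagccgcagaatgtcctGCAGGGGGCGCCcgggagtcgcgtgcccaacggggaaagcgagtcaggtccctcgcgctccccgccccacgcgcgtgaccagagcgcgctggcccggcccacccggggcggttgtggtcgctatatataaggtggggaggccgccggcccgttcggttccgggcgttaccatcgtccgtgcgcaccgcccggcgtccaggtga
ADM: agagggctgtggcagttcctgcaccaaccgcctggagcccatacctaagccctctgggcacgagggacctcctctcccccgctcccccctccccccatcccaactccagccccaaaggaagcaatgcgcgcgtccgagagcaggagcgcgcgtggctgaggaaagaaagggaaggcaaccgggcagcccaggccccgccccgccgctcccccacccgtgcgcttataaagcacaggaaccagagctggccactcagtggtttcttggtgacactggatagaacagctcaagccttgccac
MYOZ1: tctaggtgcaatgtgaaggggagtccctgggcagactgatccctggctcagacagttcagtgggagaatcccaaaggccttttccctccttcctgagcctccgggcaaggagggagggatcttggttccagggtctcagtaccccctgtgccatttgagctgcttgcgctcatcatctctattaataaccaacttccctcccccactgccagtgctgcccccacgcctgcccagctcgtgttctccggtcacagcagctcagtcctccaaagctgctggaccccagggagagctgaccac
The capitals mark GCAGGGGGCGCC, the longest stretch that stands 2 times in the COXFA4L3 promoter, whose letters resemble the core of the known CTCF motif. It was taken up after the sequence had been seen. Searched on both strands, it is in 37 of the 15812 RefSeq promoters (0.234%), of which COXFA4L3 is the 1 that holds it 2 times, and in neither of the other promoters printed. Among the 2161 promoters that lie in an anchor of a shared loop, 0.602% hold it. A degenerate core of the CTCF motif, also searched on both strands, is in 426 of the 15812 promoters (2.69%), in 87 of the 2161 (4.03%), and in none of those printed. G and C make up 73.3% of the COXFA4L3 promoter, 65% of that of ADM and 59% of that of MYOZ1, against a median of 62.7% over all promoters. The promoter of SBF2, a guanine exchange factor gene on the other strand, overlaps that of ADM.

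The libraries differed in how much was called. The APH list has 27395 loops and 732695 contact counts, and the HU list 21448 loops and 550828 counts. The DMSO and H2O lists have 17660 and 22446 loops. No count below 12 is listed, so a pair missing from a list is not a 0 and total read depth is unknown. B cell markers carried loops in every library, from 5 of 8 in HU to 7 of 8 in APH, including MS4A1, CD79A, PAX5, CD22 and BLK throughout. Of 6 T cell markers 2 or 3 carried a loop, of 5 myeloid markers 1 to 3 and of 3 erythroid markers 1. Loops say nothing here of expression.

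Few single loops were called apart between the drugs. A loop is called apart here when its scaled counts differ at least 1.5-fold and the interval excludes 1. By this rule 351 of 15182 shared loops (2.31%) stood apart, 172 higher with aphidicolin (1.13%) and 179 higher with hydroxyurea (1.18%). Between the vehicles 223 of 12470 (1.79%) stood apart, 107 higher in DMSO (0.858%) and 116 higher in H2O (0.93%). The median size of the log2 ratio was 0.22 in both comparisons, and 89.09% of the loops lay within 1.5-fold between the drugs, against 89.98% between the vehicles. By the interval alone, with no minimum fold, 2.69% of the loops stood apart between the drugs (1.43% higher with aphidicolin, 1.26% with hydroxyurea) and 2.1% between the vehicles (1.07% and 1.03%). The log2 ratios ran from -1.57 to 1.53 between the drugs. Among loops that reach 60 counts over both libraries, 3.99% of 5265 were called between the drugs and 3.08% of 4089 between the vehicles. No count below 12 is listed, which bounds the ratios of shallow loops. At 24 to under 40 counts, 0.362% of 5252 loops were called between the drugs and 0.309% of 4537 between the vehicles. The even split rests on scaling over shared loops. Scaled by all listed counts instead, every log2 ratio fell by 0.21 and 5.73% of the called loops were higher with aphidicolin, against 49.0%.

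**Figure D1:**
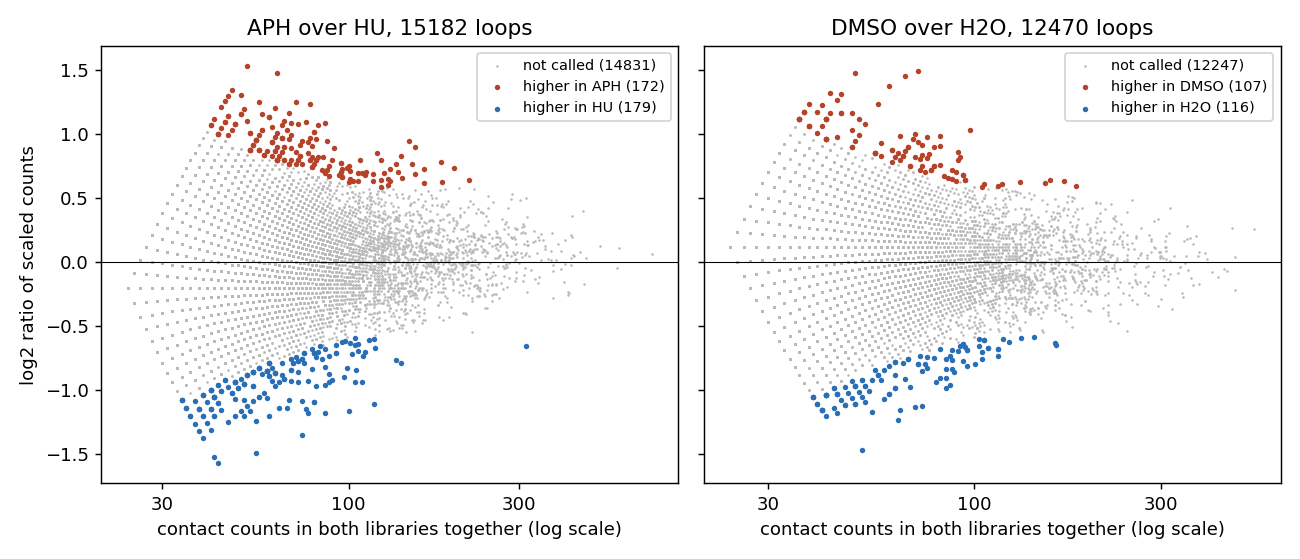
Each point is a loop, plotted by its contact counts in both libraries together (log axis) and by the log2 ratio of its scaled counts, for aphidicolin over hydroxyurea on the left and DMSO over H2O on the right. Coloured points are called apart (172 and 179 loops on the left, 107 and 116 on the right). The standard deviation of the log2 ratio on the left was 0.34 at 24 to under 40 counts, 0.41 at 40 to 60, 0.35 at 60 to 100 and 0.26 from 100 on. On the right it was 0.35, 0.40, 0.34 and 0.25.

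Over the 9529 loops listed in all 4 libraries, the share called apart was smaller between aphidicolin and hydroxyurea than between either drug and a vehicle. The rule called 3.14% of these loops between APH and HU and 2.21% between DMSO and H2O. It called 4.70% between APH and DMSO, 5.87% between APH and H2O, 5.86% between HU and DMSO, and 6.37% between HU and H2O. With all 4 libraries thinned at random to 300320 counts, the APH and HU share was 3.24%, the vehicles' 2.27%, and the other 4 shares were 4.68% to 6.64%. The order of APH over HU between the vehicle pair and the drug-vehicle pairs was the same on the 2427 loops that reach 160 counts over all 4. There the mean squared difference was 1.15 times the variance that counting gives for APH and HU, 1.01 for the vehicles, and 1.58 to 2.03 for the others. These pairs share libraries and rest on 1 library each. The thinning, the variance index and its count limit were chosen after the data had been seen.

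**Figure D2:**
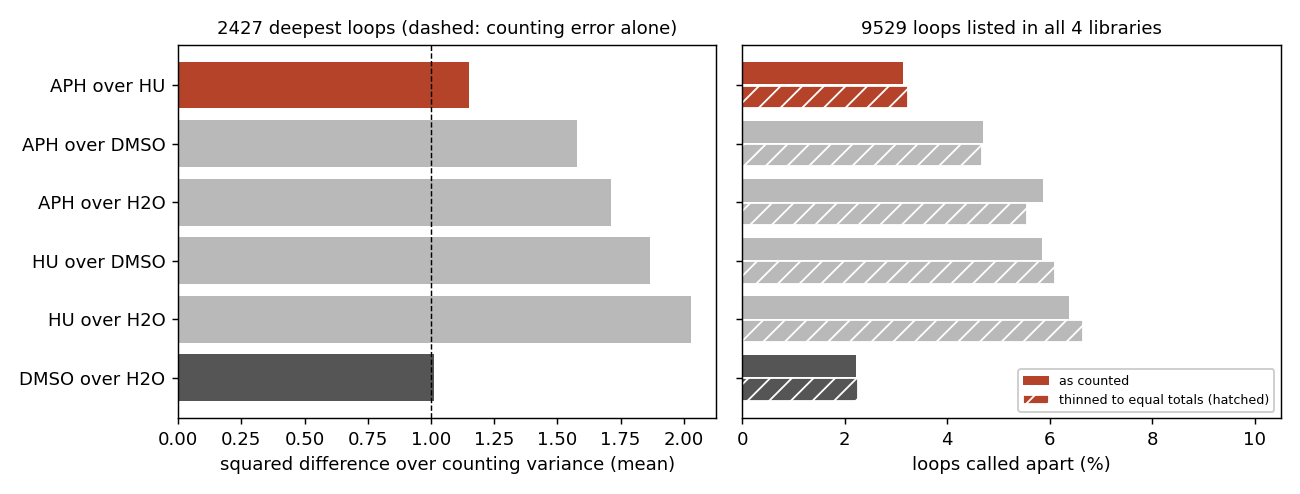
Bars show the 6 pairs of libraries. On the left is the mean squared deviation of counts from the share given by the library totals, in units of its counting variance (dashed line at 1). On the right is the percent of loops called apart, as counted (plain) and thinned (hatched). APH over HU, at 1.15 and 3.14%, lies between DMSO over H2O, at 1.01 and 2.21%, and the 4 drug-vehicle pairs.

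Of the 351 called loops, 18 share an anchor with another loop called in the same direction and 8 with a loop called in the opposite direction. How many of an equal number of shared loops would do so was not measured, so these counts cannot be called few or many. Loops higher with aphidicolin spanned a median of 112.5 kb and those higher with hydroxyurea 90 kb, against 100 kb for all shared loops. Of the loops higher with aphidicolin 94.2% were listed in both vehicle libraries, against 76.0% of those higher with hydroxyurea and 62.8% of all shared loops. The called loops are also deeper, with median counts of 69 and 59 against 48. Of the 162 higher with aphidicolin that all 4 libraries list, 89 were higher in DMSO (54.9%), with a median log2 ratio of DMSO over H2O of 0.03. Of the 136 higher with hydroxyurea, 59 were higher in H2O (43.4%), with a median of 0.06.

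The loops with most contacts were the same in both drug libraries, and none of them was called apart. The loop at chr15:45430001-45460000 joins the COXFA4L3 bin printed above to SLC30A4-AS1 over 25 kb. It had 388 counts in APH, 322 in HU, 204 in DMSO and 258 in H2O, a drug ratio of 0.06 (-0.15 to 0.28). Against its own vehicle it was higher in both drug libraries, by 0.60 (0.35 to 0.85) with aphidicolin and by 0.34 (0.09 to 0.58) with hydroxyurea. A 95 kb loop at chr1:23540001-23640000 had 318, 256, 225 and 238 counts in APH, HU, DMSO and H2O, with a drug ratio of 0.11 (-0.13 to 0.35). Its anchors lie 8.8 kb from the cell cycle transcription factor gene E2F2 and 51.8 kb from the ribosomal protein gene RPL11. A 55 kb loop at chr1:27605001-27665000, between AHDC1 and the interferon-induced gene IFI6, had 299, 268, 271 and 246, with a drug ratio of -0.05 (-0.29 to 0.20).

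The highest ratio of aphidicolin over hydroxyurea, among called loops with at least 60 counts, was that of a 110 kb loop on chromosome 10. It joins USP54, a gene related to ubiquitin peptidases, to the bin of MYOZ1 and SYNPO2L at chr10:73530001-73645000. It had 48 counts in APH, 15 in HU, 32 in DMSO and 24 in H2O, a drug ratio of 1.47 (0.61 to 2.42). The vehicles leaned the same way by 0.53 (-0.28 to 1.36), and the drug ratio taken relative to each drug's own vehicle was 0.92 (-0.21 to 2.05). The APH count is thus the highest and the HU count the lowest of the 4 libraries, but the ratio relative to the vehicles does not exclude 0. A 210 kb loop from GPR3 towards AHDC1 at chr1:27395001-27610000 had 57 counts in APH, 21 in HU, 25 in DMSO and 27 in H2O. Its drug ratio was 1.24 (0.49 to 2.03), its vehicle ratio 0.01 and its ratio relative to the vehicles 1.21 (0.14 to 2.27). GPR3 encodes a receptor that raises cyclic AMP without a ligand.

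A 40 kb loop inside PDZRN3, a ubiquitin ligase gene, at chr3:73455001-73500000 had 47 counts in APH, 19 in HU, 21 in DMSO and 30 in H2O, with a ratio relative to the vehicles of 1.48 (0.36 to 2.59). The 480 kb loop at chr2:37395001-37880000, near QPCT and RMDN2, had 54, 22, 48 and 56 counts in APH, HU, DMSO and H2O, and 1.17 (0.27 to 2.08) relative to the vehicles. In this last loop HU is the library that stands low, since APH, DMSO and H2O lie close together. Another 5 of the 10 highest had drug ratios of 1.09 to 1.25, and their ratios relative to the vehicles did not exclude 0. Among them are loops that join a bin near the complement receptor gene C5AR1 to SLC8A2, a sodium-calcium exchanger (52 and 19 counts in APH and HU), and a bin near UMODL1 to the sterol transporter gene ABCG1 (45 and 17). KANSL1L to ACADL, an acyl-CoA dehydrogenase, had 43 and 17, as had a loop between LEKR1 and the cyclin gene CCNL1.

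On the hydroxyurea side the lowest ratio, again among called loops with at least 60 counts, was that of a 25 kb loop at chr20:45985001-46015000. It joins a bin near ZNF335 to MMP9, which encodes a secreted matrix metalloproteinase. It had 23 counts in APH, 51 in HU, 22 in DMSO and 18 in H2O, a drug ratio of -1.35 (-2.13 to -0.62) and -1.78 (-2.93 to -0.64) relative to the vehicles. Here HU stands above the other 3 libraries, which lie together. The same holds for the 70 kb loop between PLA2G4D and PLA2G4F, 2 neighbouring cytosolic phospholipase A2 genes, at chr15:42065001-42140000, with 28, 52, 23 and 21 counts in APH, HU, DMSO and H2O. Its drug ratio was -1.10 (-1.81 to -0.41) and its ratio relative to the vehicles -1.37 (-2.45 to -0.29).

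A 35 kb loop from SAE1, which takes part in activating SUMO, at chr19:47210001-47250000 had 20, 40, 27 and 26 counts in APH, HU, DMSO and H2O, with a drug ratio of -1.20 (-2.06 to -0.40) and -1.40 (-2.50 to -0.30) relative to the vehicles. A 90 kb loop from near CAPN1, a calpain protease gene, to CDC42EP2 at chr11:65225001-65320000 had 26, 51, 34 and 32, with -1.40 (-2.38 to -0.43) relative to the vehicles. A 250 kb loop at chr16:10255001-10510000 had 34, 66, 49 and 56, with -1.11 (-1.92 to -0.29). Its anchors lie 72.1 kb from GRIN2A, a glutamate receptor subunit gene, and 18.4 kb from EMP2. In each of these loops, from SAE1, near CAPN1 and on chromosome 16, APH lies lowest and HU highest, with the vehicles between them. The remaining 5 of the 10 lowest had drug ratios of -1.18 to -1.11. Among them ANKRD16, with 29 counts in APH and 57 in HU, and IGSF11, with 26 and 50, had ratios relative to the vehicles that did not exclude 0. The loops near FA2H and WDR59 (23 and 44) and near STRA8 and CNOT4 (22 and 42) are not listed in H2O.

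The tenth of these loops joins SBF2 to the ADM bin whose promoter is printed above, over 100 kb at chr11:10205001-10310000. It had 41 counts in APH, 77 in HU, 38 in DMSO and 59 in H2O. The drug ratio was -1.11 (-1.70 to -0.55), and the vehicles leaned the same way by -0.52 (-1.15 to 0.09). HU is highest and H2O, its vehicle, second, so the ratio relative to the vehicles was -0.62 (-1.42 to 0.18).

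The deepest called loops were added to these after their values had been seen. The one with most counts, 315 in both drug libraries, lies at chr19:46635001-46665000 and joins the G protein subunit gene GNG8 to DACT3, a gene of Wnt signalling, over 25 kb, with each gene's promoter in an anchor. It had 133 counts in APH, 182 in HU, 108 in DMSO and 144 in H2O. Its drug ratio was -0.66 (-0.99 to -0.33), the vehicle ratio -0.30 (-0.67 to 0.07) and the ratio relative to the vehicles -0.38 (-0.86 to 0.10). On the aphidicolin side the deepest was an 80 kb loop beside PLEK, the pleckstrin gene, at chr2:68360001-68445000. It had 140 counts in APH, 78 in HU, 94 in DMSO and 122 in H2O, with a drug ratio of 0.64 (0.23 to 1.06) and 0.88 (0.32 to 1.43) relative to the vehicles. A 175 kb loop at NIBAN1, at chr1:184805001-184985000, had 130, 68, 124 and 135 counts in APH, HU, DMSO and H2O. Its ratio relative to the vehicles was 0.71 (0.16 to 1.26), and HU alone is low there.

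Loop span separated the drugs little. Pooled over all shared loops of a span class, the log2 ratio of APH over HU was -0.03 (-0.05 to -0.01) for 927 loops of 10 to 30 kb and -0.0029 (-0.01 to 0.0057) for 6393 loops of 30 to 100 kb. It was 0.02 (0.01 to 0.03) for 5812 loops of 100 to 250 kb, -0.03 (-0.05 to -0.01) for 1699 loops of 250 to 500 kb, and -0.07 (-0.11 to -0.02) for 351 loops of 500 to 1000 kb. Between the vehicles the same classes gave -0.04, -0.0051, 0.0062, 0.02 and 0.0041. Each drug against its own vehicle moved further. From the shortest to the longest class APH over DMSO went 0.09, 0.08, -0.04, -0.18 and -0.24, and HU over H2O 0.09, 0.07, -0.06, -0.13 and -0.16. In both libraries, then, short loops were higher and long loops lower than in the vehicle.

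The difference between those 2 shifts was 0.00025 and 0.0015 for the shorter classes and 0.01 at 100 to 250 kb. It was -0.05 (-0.08 to -0.02) at 250 to 500 kb and -0.08 (-0.15 to -0.0022) at 500 to 1000 kb, so the long loops were slightly lower in APH than in HU. Divided by the deposited expected counts before pooling, the longest class gave -0.02 and the 250 to 500 kb class -0.0015.

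**Figure D3:**
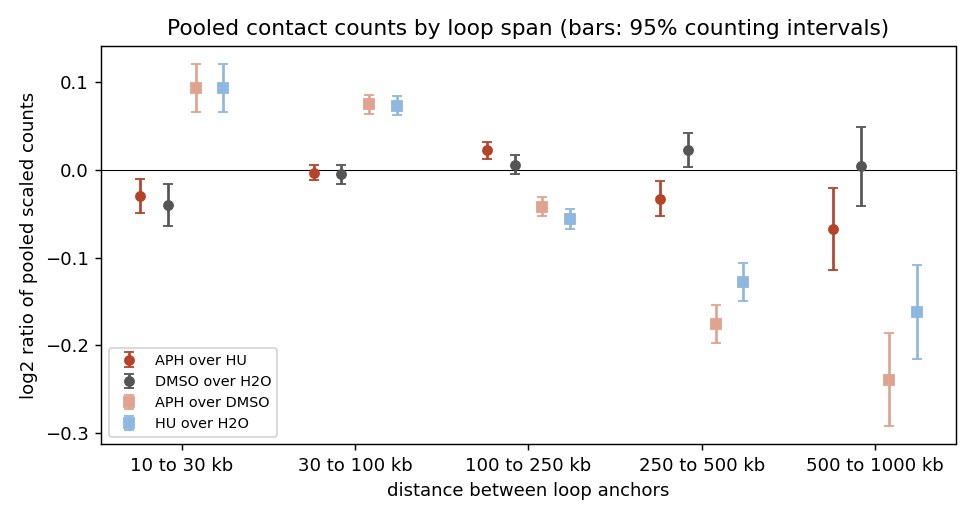
Points show the log2 ratio of pooled scaled contact counts in each class of distance between anchors, with 95% counting intervals, for APH over HU, DMSO over H2O, APH over DMSO and HU over H2O. The drug-vehicle ratios run from 0.09 at 10 to 30 kb to -0.24 and -0.16 at 500 to 1000 kb, while APH over HU stays between -0.07 and 0.02.

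Classes of anchors differed little as well. Loops with 1 anchor on a gene body had a pooled drug ratio of 0.0058, loops between different genes -0.00069 and loops with no anchor on a gene 0.0012. Loops with both anchors on the same gene had -0.02 (-0.03 to -0.0013), and the vehicles gave -0.03 (-0.05 to -0.01) for that class. The 244 loops with a promoter in both anchors had -0.05 (-0.09 to -5.2e-05).

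The lists overlapped in part. Of the APH loops 55.4% (54.8 to 56.0, exact binomial) were listed in HU, and APH held 70.8% (70.2 to 71.4) of those in HU. For the vehicles 70.6% (69.9 to 71.3) of the DMSO loops were in H2O and 55.6% (54.9 to 56.2) of the H2O loops in DMSO. The APH list is 1.28 times as long as the HU list. With APH counts thinned to the HU list's total the shares were 64.6% and 61.4%, and with a shift of 1 bin allowed they were 73.9% and 84.1%. Loops listed in 1 drug library were weak. The 12213 found in APH alone and the 6266 found in HU alone each had a median of 16 counts, against 25 in APH and 22 in HU for shared loops. Their median ratio of observed to expected counts was 4.17 and 4.16, against 5.92 and 5.74. Of the APH-only loops 37.2% were in a vehicle list, of the HU-only loops 33.6%, and of the shared loops 84.3%.

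HU-only loops were the shortest. Of them 59.7% (58.5 to 60.9) spanned under 100 kb, against 55.1% (54.2 to 56.0) of APH-only and 48.2% (47.4 to 49.0) of shared loops. The median spans were 75, 90 and 100 kb. In the whole lists the share under 100 kb was 51.3% in APH and 51.6% in HU.

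**Figure D4:**
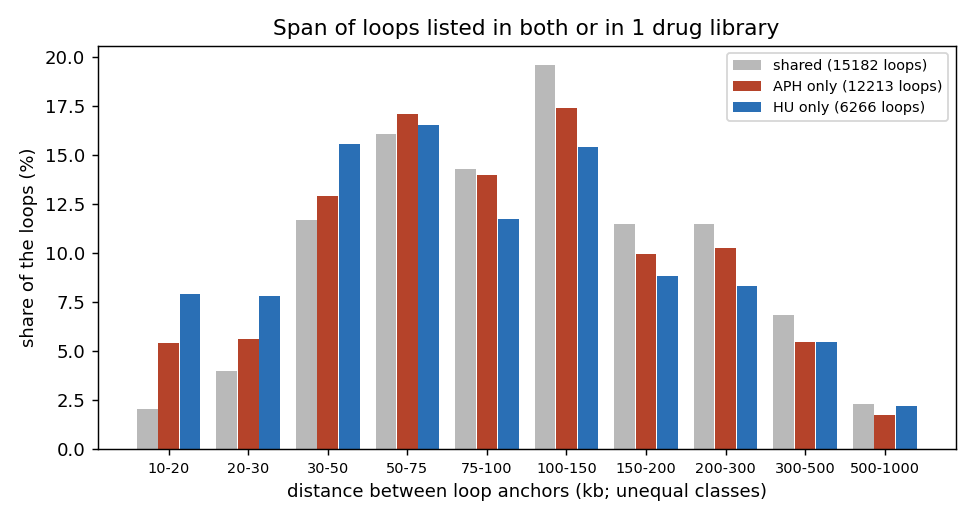
Bars give the percent of loops in each class of distance between anchors (kb, unequal classes) for the 15182 shared loops, the 12213 listed in APH alone and the 6266 listed in HU alone. The HU-only bars are the tallest below 50 kb and the shared bars the tallest from 75 kb on.

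The strongest unshared loops were short and close to the listing limit. Every listed loop has at least 2 times its expected count, and the 10 strongest unshared loops had 2.00 to 3.18 times. In APH the first was a 10 kb loop at DAD1, a subunit of the oligosaccharyltransferase, at chr14:22555001-22570000, with 226 counts in APH, 188 in DMSO and 215 in H2O. A 15 kb loop near ARHGEF18 at chr19:7325001-7345000 had 121 counts in APH, 70 in DMSO and 72 in H2O. A 20 kb loop from FCMR, the IgM Fc receptor gene, to PIGR, the receptor that carries polymeric immunoglobulin across epithelia, at chr1:206910001-206935000 had 91 in APH, 67 in DMSO and 80 in H2O. These 3 loops are thus listed in every library but HU. A 10 kb loop in GNG7 at chr19:2595001-2610000 had 115 in APH and 108 in H2O. A 35 kb loop at chr1:234975001-235015000 had 103 in APH, and HU lists a loop of 95 counts within 1 bin of it. The protein-coding gene nearest to this APH loop is TOMM20, a mitochondrial import receptor gene, 94.3 kb away.

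The 5 HU-only loops with most counts are in no other list at the same bins. Within 1 bin of the loop on chromosome 15, DMSO lists 2 loops, of at most 32 counts. A 15 kb loop at chr4:184265001-184285000 had 132 counts. A 20 kb loop 48.5 kb from SLC1A4, a neutral amino acid transporter gene, at chr2:64915001-64940000 had 118. A 10 kb loop between the sphingosine phosphate receptor gene S1PR2 and MRPL4 at chr19:10235001-10250000 had 99. A 10 kb loop near TNFRSF13B, which encodes the TACI receptor of B cells, at chr17:16975001-16990000 had 96. A 25 kb loop at chr15:70460001-70490000 also had 96, and its nearest protein-coding gene, UACA, is 165 kb away. Their observed counts were 2.00 to 2.38 times the expected ones. How far the other libraries fell below the limit at these pairs was not measured.

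Summed over the loops of a gene, the drugs were again close. A gene takes each shared loop that has an anchor on its body, in the RefSeq table of GRCh38.p14, which does not separate exons, introns and UTRs. Of 3290 genes with at least 100 counts in both drug libraries together, 8 were called higher with aphidicolin (0.243%) and 19 higher with hydroxyurea (0.578%). Together these are 27 genes (0.821%). Between the vehicles 31 of 2729 (1.14%) were called, 19 higher in DMSO (0.696%) and 12 higher in H2O (0.44%). By the interval alone 4.65% of the genes stood apart between the drugs (2.52% higher with aphidicolin, 2.13% with hydroxyurea) and 4.25% between the vehicles (2.57% and 1.69%). Scaled by all listed counts, 1.77% of the called genes were higher with aphidicolin, against 29.6%. The log2 ratios of these genes ran from -0.91 to 0.84, and 88.5% lay within 1.25-fold, against 88.6% between the vehicles. Genes that share a loop share its counts.

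The 8 genes called higher with aphidicolin were picked by their drug ratio. Being further apart than between the vehicles was a condition for naming a gene, which all 8 met, and is no separate support. NOL4L had 124 counts in APH and 62 in HU, a ratio of 0.80 (0.34 to 1.26). Over the NOL4L loops that both vehicles list, the counts were 108 in DMSO and 131 in H2O (-0.16), and relative to the vehicles the ratio was 0.96 (0.24 to 1.67). A single 130 kb loop from NOL4L to C20orf203, with 105 counts in APH, 49 in HU, 54 in DMSO and 62 in H2O, carries most of it, and APH stands above the other 3 libraries there.

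GPR3 had 161 counts in APH and 90 in HU over 5 loops, a ratio of 0.64 (0.25 to 1.02), against -0.01 between the vehicles (129 and 141) and 0.86 (0.30 to 1.43) relative to them. All 5 loops leaned towards aphidicolin, by 0.08 to 1.24. GPR3 was picked by their sum and some of them share an anchor, so this is no separate support. Over loops with an anchor within 5 kb of either gene end instead, GPR3 was at 0.17 and not called. CORO1C, an actin-binding coronin, had 145 and 82 over 3 loops to SSH1, a cofilin phosphatase gene, with 0.62 (0.22 to 1.03) and 0.78 (0.25 to 1.32) relative to the vehicles. LRRC74A had 99 and 56, with 0.62 (0.13 to 1.12). The vehicles leaned the other way there by -0.50, and the ratio relative to them was 1.31 (0.52 to 2.09).

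The other 4 had intervals that reached 0 once taken relative to the vehicles. ATP11B, a phospholipid flippase, had 68 and 33 counts in APH and HU (0.84, 0.22 to 1.49). MELK, a kinase of dividing cells, had 65 and 36 (0.65, 0.04 to 1.28). ABCC2, an exporter of organic anions, had 116 and 66 (0.61, 0.16 to 1.07). STAT5A, a transcription factor of cytokine signalling, had 70 and 39 (0.64, 0.05 to 1.24) over 2 loops to CAVIN1. Those loops leave from a bin that also holds part of STAT3, so the counts cannot be given to 1 of the 2 genes.

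On the hydroxyurea side 18 genes were called and further apart than between the vehicles, and the 10 lowest are given. PLA2G4F had 41 counts in APH and 67 in HU (-0.91, -1.51 to -0.33) and -1.37 (-2.45 to -0.29) relative to the vehicles. ADM had 85 and 137 over 2 loops (-0.89, -1.30 to -0.49), the deepest of the 10. Its vehicle counts were 50 in DMSO and 74 in H2O (-0.45). Relative to the vehicles, over the 1 ADM loop listed in all 4 libraries, the ratio was -0.62 (-1.42 to 0.18), which does not exclude 0. The ADM bin also holds part of the SBF2 promoter, so these counts cannot be given to ADM alone. SAE1 had 42 and 63 (-0.79), with -1.08 (-1.86 to -0.31) relative to the vehicles. CDC42EP2, an effector of the GTPase CDC42, had 75 and 103 (-0.66), with -0.95 (-1.59 to -0.30). As an alternative, a gene took the loops with an anchor within 5 kb of either gene end. ADM and CDC42EP2 then kept their drug ratios, whereas PLA2G4F (-0.36) and SAE1 (-0.14) were no longer called. In PLA2G4F and CDC42EP2 the HU library stood above its vehicle, by 1.32 (0.57 to 2.13) and 0.66 (0.20 to 1.13), while APH and DMSO differed by -0.04 and -0.29 with intervals that include 0. In SAE1 it was APH that stood below DMSO, by -0.82 (-1.42 to -0.22).

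TMPRSS13, a membrane serine protease, had 39 and 63 (-0.90), and DHRS2, a dehydrogenase, 57 and 78 (-0.66). BMAL1, a core transcription factor of the circadian clock, had 51 and 71 (-0.68, -1.23 to -0.14). Its 4 loops all leaned towards hydroxyurea, by -0.96 to -0.43, with no single interval excluding 0. Their APH counts were 12 to 14, at or just above the lowest listed count of 12, and some of them share an anchor. BMAL1 was picked by the sum of these loops, so their common direction is no separate support. None of these 3 genes has a loop listed in both vehicles. PKIB, an inhibitor of protein kinase A, had 43 and 61 (-0.71), SDAD1 44 and 62 (-0.70), and GRK3, a kinase of G protein-coupled receptors, 61 and 83 (-0.65). For these 3 the ratios relative to the vehicles were -0.80 (-1.90 to 0.31), -0.60 (-1.47 to 0.26) and -0.39 (-1.26 to 0.49).

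**Figure D5:**
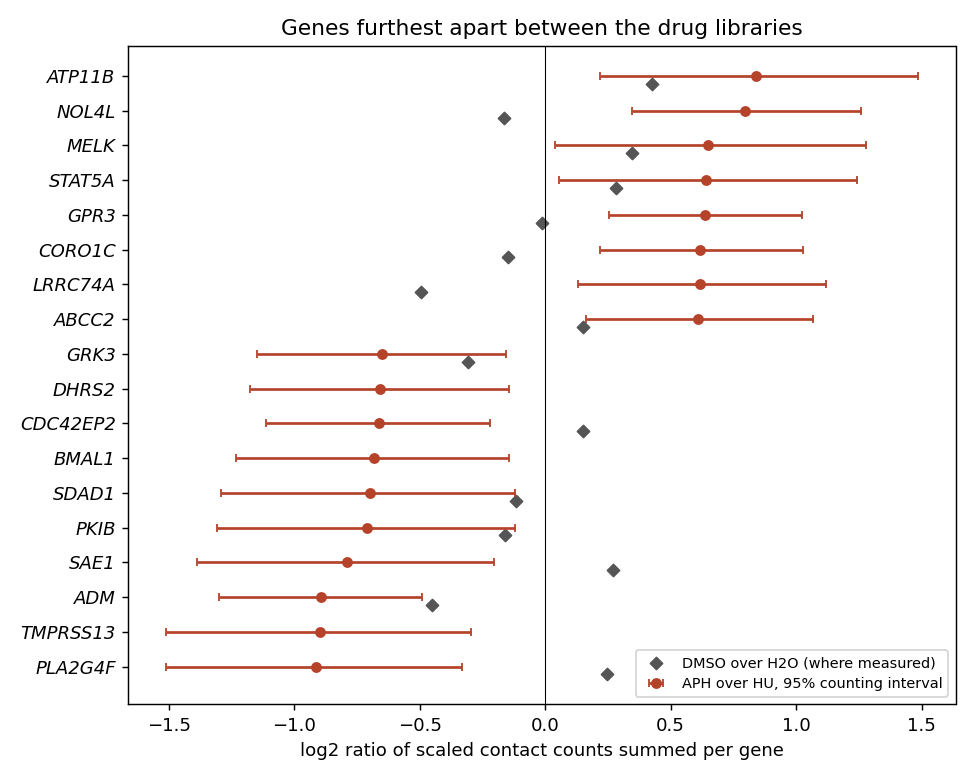
Circles show the log2 ratio of summed scaled contact counts, APH over HU, for the 8 genes called higher with aphidicolin and the 10 lowest of those called higher with hydroxyurea, with 95% counting intervals. Diamonds show DMSO over H2O where both vehicles list a loop of the gene, and lie between -0.50 and 0.42.

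Genes of the drugs' own pathways and of other lists were set beside all genes. Over all 6256 genes with a shared loop the rule calls 0.496% higher with aphidicolin and 0.687% higher with hydroxyurea (1.18% in all), and the median ratio is -0.02. The lists are short, so the number of calls in them cannot be told from that share. None of 8 measured genes of the replicative polymerases and primase, the target of aphidicolin, was called, with a median of -0.0064 and a range from -0.64 in POLA1, the catalytic subunit of polymerase alpha (14 and 19 counts in APH and HU), to 0.41 in POLE3, a small subunit of polymerase epsilon (52 and 34). None of 4 measured genes of deoxynucleotide supply was called, with a median of -0.02. They ran from -0.27 in the thymidine kinase gene TK1 (150 and 157) to 0.25 in the nucleoside diphosphate kinase gene NME1 (228 and 166). RRM2, the small subunit of ribonucleotide reductase and thus a part of the hydroxyurea target, had 26 and 21 counts, a ratio of 0.10 (-0.78 to 1.01).

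Of 21 measured genes of replication licensing, forks and the S-phase checkpoint, 1 was called, and the median was 0.01. This was DBF4, the activator of the CDC7 kinase that starts origins. A single 90 kb loop joins it to RUNDC3B, with 32 counts in APH, 12 in HU, 21 in DMSO and 24 in H2O. The ratio was 1.21 (0.22 to 2.30), and relative to the vehicles 1.26 (-0.01 to 2.54). CDC7 itself had 42 and 38 counts (-0.06). PCNA, the sliding clamp, was the deepest of the list with 282 and 249 counts over 8 loops (-0.02, -0.28 to 0.23). MCM10 had the lowest ratio, -0.38 (-1.12 to 0.36). ATRIP, the partner of the ATR kinase, had 139 and 153 counts and -0.34, under 1.5-fold, with an interval that just excludes 0.

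None of 10 measured genes of cohesin, its regulators and CTCF was called, 7 of them lay below 0 and the median was -0.15. They ran from -0.79 in CHTF8 (18 and 27 counts), of the alternative clamp loader, to 0.68 in SMC3 (24 and 13). CTCF had 21 and 20 counts (-0.13). None of 12 measured p53 and DNA damage targets was called, 8 lay above 0 and the median was 0.12, the same as between the vehicles over 13 genes. Pooled, the list's loops gave 0.21 (0.08 to 0.35). CDKN1A, the p21 inhibitor of cyclin-dependent kinases, was the deepest, with 303 counts in APH and 200 in HU over 4 loops. Its ratio of 0.40 (0.13 to 0.66) excludes 0 but stays under 1.5-fold. Over loops listed in all 4 libraries it was 0.57 (0.22 to 0.93) relative to the vehicles, where APH over DMSO was -0.06 and HU over H2O -0.63, so HU is the library that stands low. The list ran from -0.31 in AEN to 0.50 in TP53INP1 (80 and 49 counts).

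None of 12 measured common fragile site genes was called, and the median was -0.07. The deepest was PDE4D with 366 and 299 counts over 15 loops (0.09, -0.14 to 0.31). FHIT, at the fragile site of chromosome 3, had 64 and 64 (-0.20, -0.73 to 0.32), and WWOX, at that of chromosome 16, 60 and 50 (0.06, -0.51 to 0.63). The extremes were AUTS2 at -0.29 and RORA at 0.20.

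None of 19 measured B cell identity genes was called, and the median was 0.09, with a pooled ratio of 0.08 (0.0025 to 0.16). IKZF1, a lymphoid zinc finger factor, had the lowest ratio, -0.26. POU2F2, the octamer factor, was the deepest with 405 and 355 counts (-0.01). None of 17 measured NF-kB and Epstein-Barr virus responsive genes was called, with a median of 0.01, from -0.30 in BIRC3 to 0.44 in CFLAR. RUNX3 had 516 and 471 counts over 13 loops (-0.07). MYC had 1 loop with 45 and 39 counts (0.0024).

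None of 5 T cell genes (median 0.17, CD4 at -0.40 to CD5 at 0.33) and none of 5 myeloid and erythroid genes (median -0.29, CSF1R at -0.72 to S100A9 at -0.11) was called. All 5 of the latter lay below 0, on 201 counts in APH and 210 in HU in all, and their pooled ratio of -0.27 (-0.55 to 0.02) does not exclude 0.

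Larger stretches of the genome differed by small amounts. Chromosome 11, at -0.04 (-0.06 to -0.01), was the only one whose interval excluded 0 between the drugs, while chromosomes 4, 19 and 21 did so between the vehicles. Of 301 windows of 5 Mb with at least 1000 counts, 24 had an interval that excluded 0 (7.97%), 12 in each direction, and none was 1.5-fold apart. Between the vehicles this was 3.40% of 265. The lowest window was 10 to 15 Mb of chromosome 11, which holds ADM, SBF2 and BMAL1. It had 887 counts in APH, 896 in HU and a ratio of -0.22 (-0.35 to -0.08), against -0.02 between the vehicles. These counts include the called genes ADM (85 in APH and 137 in HU) and BMAL1 (51 and 71). The window is thus no result apart from them, and its ratio without them was not computed. The windows at 80 to 85 Mb of chromosome 8 and 65 to 70 Mb of chromosome 17 followed at -0.21 and -0.20. The highest were 0 to 5 Mb of chromosome 9 at 0.25, 80 to 85 Mb of chromosome 10 at 0.18 and 40 to 45 Mb of chromosome 7 at 0.17.

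Of 595 anchors with at least 5 shared loops none was called, and their ratios ran from -0.42 to 0.49. The highest was a bin on ESR2, the estrogen receptor beta gene, at chr14:64290001-64295000, with 181 counts in APH and 112 in HU over 6 loops (0.49, 0.14 to 0.84). The vehicles had 108 and 114 there (0.04). Bins at chr17:50950001-50955000 (0.40) and near the splicing factor gene SRSF3 at chr6:36620001-36625000 (0.37) came next. The lowest were the bin of MYL12A, a myosin light chain gene, and MYOM1 at chr18:3245001-3250000 (-0.42), one on DHRS3, a retinal reductase gene, at chr1:12615001-12620000 (-0.41), and one near JPH4 at chr14:23585001-23590000 (-0.37). The JPH4 bin is also an anchor of a DHRS2 loop.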

How the data were processed

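SMC1 HiChIP libraries of GM12878 were grouped by the treatment in the labels, 1 library in each of 4 groups. Per the submitters' processing notes, bcl2fastq 2.17, MACS3 3.0.1 and hg38 were used. The aligner is not given in the sources used here, nor is the loop caller. Each library has 1 deposited loop list without a header, so columns were read from their values. Contact counts, as the authors deposited them, are whole, not normalized and no lower than 12 for a pair of 5 kb bins. A deposited signal column is taken as the count that the background model expects, and a deposited p-value column, below 0.01 throughout, as the false discovery rate. Anchors lie 10 to 1000 kb apart.

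Ratios have no pseudocount and were checked on simulated data (scipy 1.17.1, pandas 2.3.3 and numpy 2.4.6 under Python 3.11.15). Figures used matplotlib 3.10.9. Intervals of ratios are 95% exact conditional binomial intervals. Those of ratios relative to the vehicles are normal intervals from 4 counts over loops listed in all 4 libraries, and those of shares are Clopper-Pearson intervals. Genes came from RefSeq GRCh38.p14 (19974 protein-coding genes, 15812 with a promoter). Where no gene lies on an anchor, the nearest protein-coding gene is named, at whatever distance. Loops were named if among the 3 deepest per drug library, the 10 highest or lowest called ratios with at least 60 counts, or the 5 deepest unshared per library. Genes were named if among the 10 highest or lowest called with at least 100 counts and further apart than between the vehicles (8 passed on the aphidicolin side), or as extremes, called or deepest members or known targets of a list. Some items that the rule names are not reported here. Members and lists were chosen with earlier results of these data known. Alternatives changed the scaling, the loops used, count limits, the call rule, gene assignment, anchor matching and depth.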

Additional observations from a re-analysis of the deposited data

How the results depend on the processing

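No paired analysis was possible because each group has 1 library, which also leaves no replicate to leave out. Depth limits single loops most: 1850 of the 15182 shared loops have at least 100 counts in the drug libraries together. Scaled by all listed counts, the loops called higher with aphidicolin and hydroxyurea were 41 and 675 and the genes 2 and 111, by the construction of that scaling, which shifts every ratio by -0.21. With at least 24 counts in each library the called loops were 77 and 82, on 6380 loops. Relative to expected counts 276 loops were higher with hydroxyurea. Genes with at least 50 counts gave 27 and 35 calls, those with at least 200 gave 2 and 2, the interval alone gave 83 and 70, and promoters in an anchor gave 1 and 8. Loop calls were otherwise within 1.5 times of 172 and 179 under the alternatives run, median of ratios included (56.5% higher with aphidicolin).

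Scaled by loops in all 4 libraries, the span classes from 10 to 500 kb gave -0.0529, -0.0260, -0.00063 (reversed) and -0.0559. By median of ratios the classes of 30 to 100 and 100 to 250 kb gave 0.0167 and 0.0420. Divided by expected counts, those of 30 to 100, 250 to 500 and 500 to 1000 kb gave -0.0138, -0.0015 and -0.0197. Relative to the vehicles the shortest class gave 0.00025 (reversed). Overlap of APH loops with HU, and of HU with APH, was 73.9% and 84.1% within 1 bin, 59.7% and 79.2% at 24 counts or more, 64.6% and 61.4% with APH thinned, and 64.0% for both with equal numbers of loops. The share of loops under 100 kb was 62.4% in APH and 63.1% in HU at 24 counts or more, and 56.0% in APH when thinned. Fragile site genes gave a pooled -0.27 by gene ends within 5 kb. Other than as stated, the cause of these moves was not tested.

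Relative to their own vehicles 9 of 18 named loops and 7 of 15 named genes had intervals that exclude 0, and none reversed. This is no independent check. The loops and genes were picked by the same APH and HU counts that this ratio uses. By gene ends 6 of 13 named genes kept their call, by promoters 3 of 5, and under scaling by all listed counts 12 of 18. The 7 that lost it by gene ends were PLA2G4F (-0.36), SAE1 (-0.14), SDAD1 (-0.04), BMAL1 (-0.57), LRRC74A (0.41), GPR3 (0.17) and STAT5A (0.31). The promoter assignment and the thinning were chosen after seeing the data.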

Other observations

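The genes with most unshared loops were counted over the gene body and picked after their values had been seen. Over all loops, 12213 were listed in APH and not HU, 6266 in HU and not APH, and 15182 in both. TPD52-MRPS28 had 18 loops listed in APH and not HU, 3 listed in HU and not APH, and 13 shared. ITPR1, which encodes a calcium release channel of the endoplasmic reticulum, had 17, 6 and 15. NIN, which encodes the centrosome protein ninein, had 14 loops in APH alone, 0 in HU alone and 2 shared. RBPJ, the DNA-binding factor of Notch signalling through which a viral nuclear antigen also acts, had 14, 6 and 3.

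On the other side ANXA4, a calcium-dependent membrane-binding protein, had 13 loops in HU alone, 6 in APH alone and 12 shared. MB21D2 had 8 in HU alone, 0 in APH alone and 4 shared, and PTK2B, a focal adhesion family kinase, had 9, 6 and 5. The APH list is longer, so these counts are not on an equal footing, and an unlisted loop may hold up to the listing limit of contacts or more.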
